A study of Mus musculus with 8 samples.

Results

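The proteasome genes of the mouse striatum were examined in 8 Affymetrix arrays: the genes of the core particle, of the regulatory cap, of the activators that can replace the cap, and of the chaperones that help build the complex. Members were the probe sets annotated to exactly 1 gene whose symbol has the form Psma to Psmg followed by a digit, and the probe set with the highest mean was kept for each gene. This gave 50 genes on 56 probe sets. Of these, 48 are proteasome genes: 19 of the core (8 alpha and 11 beta subunits), 20 of the cap (6 ATPases and 14 non-ATPase subunits and their partners) and 9 activator, inhibitor and assembly genes. The other 2, Psmc3ip and Psme3ip1, match only by symbol and encode proteins that bind a proteasome protein or take their name from one. The filter on dim probe sets, a mean of at least 5.25 on the log2 scale, passed 47 of the 50 genes, among 14890 genes tested in all.

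The mice were male inbred C57BL/6 animals, 6 weeks old, in 4 groups of 2 mice, with 1 array for each mouse. Acupoint mice received MPTP and hand needling on both sides at the points GB34, to a depth of 3 mm, and LR3, to a depth of 1 mm. Non-acupoint mice received MPTP and the same needling at the hips, to a depth of 3 mm. MPTP mice received the toxin alone, and control mice received saline. MPTP was injected into the abdomen at 20 mg/kg every 24 h for 4 weeks, and needling was given in 14 sessions 48 h apart. MPTP is a toxin that injures midbrain dopamine neurons, whose axons end in the striatum, so the cell bodies it kills lie outside the tissue sampled. The labels describe it as a chronic model of parkinsonism. There was no group needled without MPTP and no group handled without needling.

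The proteasome is the barrel-shaped protease that degrades proteins tagged with ubiquitin. Stacked rings of alpha and beta subunits form the barrel. The alpha subunits gate its entrance, and 3 of the beta subunits cut the substrate inside. The cap binds ubiquitin chains, removes them and uses ATP to thread the protein into the barrel. In immune cells and under interferon, a different set of catalytic subunits can replace the constitutive ones, which changes the peptides made for antigen presentation. When proteasomes are inhibited, the transcription factor NRF1, the product of Nfe2l1, is known to raise most subunit genes together through antioxidant response elements in their promoters. Loss of proteasome function has long been studied in Parkinson disease, since protein aggregates mark the dying neurons.

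No proteasome gene passed the test in any of 7 comparisons, and none of the other genes tested did either. Among the 47 genes tested, 1 catalytic subunit stood out by size. Psmb5, the subunit with chymotrypsin-like activity, averaged 9.46 ± 0.10 in MPTP mice and 8.97 ± 0.06 in control mice on the log2 scale (SD, n = 2 each). Its values in both needled groups lay below those of both MPTP mice. The beta subunits Psmb3, Psmb4 and Psmb6 were also highest in the MPTP group by mean. Most cap, alpha and assembly genes lay within 0.2 log2 units of the control mean in MPTP mice.

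The promoters of Psmb3 to Psmb6 are printed because these 4 genes carry the pattern described further on. Each stretch runs from 120 bases before to 30 bases after the RefSeq start of the gene in the GRCm38.p6 build, 5′ to 3′ on the gene's own strand. Capitals mark a match to TGANNNNGC, a loose form of the antioxidant response element, searched on both strands. In Psmb4 the match is on the opposite strand. Psmb3 is at chr11:97703314-97703463 on the plus strand, Psmb4 at chr3:94886929-94887078 on the minus strand, Psmb5 at chr14:54617966-54618115 on the minus strand and Psmb6 at chr11:70525237-70525386 on the plus strand.
Psmb3: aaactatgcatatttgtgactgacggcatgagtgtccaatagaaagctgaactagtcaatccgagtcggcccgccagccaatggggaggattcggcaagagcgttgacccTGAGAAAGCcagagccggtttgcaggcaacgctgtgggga
Psmb4: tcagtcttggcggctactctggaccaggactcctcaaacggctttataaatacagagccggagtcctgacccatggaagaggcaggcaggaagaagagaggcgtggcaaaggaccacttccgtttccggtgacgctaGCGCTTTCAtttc
Psmb5: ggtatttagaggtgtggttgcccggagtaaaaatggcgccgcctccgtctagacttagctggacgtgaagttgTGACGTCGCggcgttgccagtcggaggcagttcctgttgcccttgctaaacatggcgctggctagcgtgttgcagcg
Psmb6: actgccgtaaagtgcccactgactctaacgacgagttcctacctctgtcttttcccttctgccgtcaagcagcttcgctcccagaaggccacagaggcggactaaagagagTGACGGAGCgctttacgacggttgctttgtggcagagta
The match began 10 bases before the start in Psmb3, 47 bases before it in Psmb5 and 9 bases before it in Psmb6, and spanned bases 18 to 26 after it in Psmb4. Psmb5 held a second match at bases 42 to 50 after the start, beyond the printed stretch. Among the 40 proteasome genes with a RefSeq promoter of 250 bases before to 50 after the start, 23 (57.5%) held this motif, against 45.0% of 27025 genes with a promoter of the same length. The core had 11 of 15, the cap 8 of 17 and the activator and assembly genes 4 of 8. The motif CCAAT, searched in the same way, was in 14 of the 40 (35.0%), against 41.1% of all genes. Of the 4 genes printed, CCAAT was found in Psmb3 alone. A match is a run of letters and was not tested for binding.

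The arrays were alike in overall brightness, with medians of 6.02 to 6.12 on the log2 scale, but the dissections were not alike in tissue makeup. Striatal neuron markers (10 of 12 measured, among them Drd1 and Drd2) averaged -0.14 and 0.25 in the acupoint mice, -0.15 and -0.69 in the non-acupoint mice, and -2.12 and 0.38 in the MPTP mice, as log2 differences from the control mean. Thalamus, septum and pallidum markers (12 of 12) averaged 0.67 and -0.10, then 0.24 and 1.48, then 2.18 and -0.65, in the same groups and order. Choroid plexus markers (10 of 10) averaged 2.53 and 0.14 in the acupoint mice, 2.32 and 2.98 in the non-acupoint mice, and 2.34 and -0.22 in the MPTP mice. Cortical neuron markers (7 of 8) averaged -0.63 and -0.80 in the acupoint mice, -0.96 and -0.29 in the non-acupoint mice, and -0.11 and -0.13 in the MPTP mice. MPTP mouse 1 went against its label of striatal tissue: Drd1 read 7.93 in it, against 9.61 to 10.68 in the other mice. In bulk tissue, fewer cells of a type and less RNA per cell cannot be told apart. The part of tissue makeup in the proteasome values below was tested only by adding the thalamus and choroid plexus scores to the model and by leaving out single mice.

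Proteasome genes varied less between mice than most genes did, in a comparison not matched for brightness. Over the 8 arrays, the span between the highest and the lowest value had a median of 0.29 for the 47 tested members and 0.43 for all 14890 genes. It ran from 0.13 for Psmf1 to 0.71 for Psmb10, and 4 members (8.51%) exceeded 0.5, against 38.4% of all genes. Within groups, the median gap between the mice of a pair was 0.10 for the acupoint pair, 0.08 for the non-acupoint pair, 0.10 for the MPTP pair and 0.08 for the control pair. The same medians over all genes were 0.13, 0.12, 0.20 and 0.10. The MPTP pair, in which mouse 1 stood apart in its markers, differed by at least 0.3 for 35.2% of all genes but for 2 members (4.26%), Psmb10 and Psmc5. The pooled SD within groups had a median of 0.098 for members and 0.137 for all genes.

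**Figure D1:**
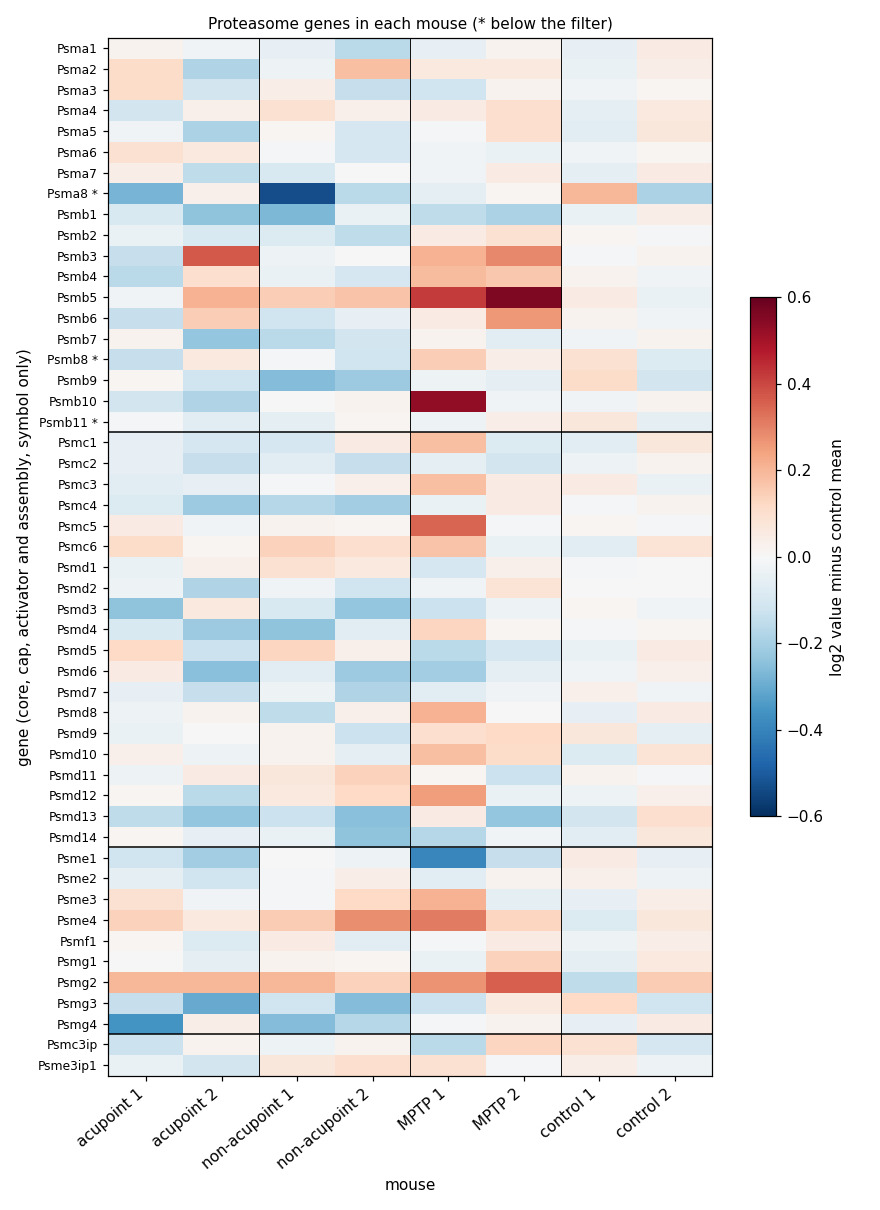
Log2 value minus the control mean of the same gene, for each of 50 member genes (down) in each of 8 mice (across). Lines separate the core, the cap, the activator and assembly genes and the genes that match by symbol only. An asterisk marks the 3 genes below the filter. Most cells are pale; the darkest red cells are Psmb5 in both MPTP mice and Psmb10 in MPTP mouse 1.

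The alpha subunits form the outer rings and gate of the barrel. Psma1 to Psma7 were tested, and their changes in MPTP mice against control mice lay between -0.05 (Psma3) and 0.07 (Psma4), with a median of 0.02. The MPTP and control values did not overlap for Psma2, which was higher at 9.76 in both MPTP mice against 9.66 and 9.74 in control mice, and for Psma6, which was lower by less than the rounding of its nearest values shows. In acupoint mice against MPTP mice the alpha changes ran from -0.16 (Psma5) to 0.11 (Psma6), and in non-acupoint mice against MPTP mice from -0.09 (Psma1) to 0.01 (Psma2). A second probe set of Psma5 was higher in both acupoint mice than in both MPTP mice, by 0.11. Psma6 read 9.62 and 9.59 in acupoint mice, 9.52 and 9.43 in non-acupoint mice, 9.51 and 9.49 in MPTP mice, and 9.51 and 9.54 in control mice. It was the 1 member higher in both acupoint mice than in both MPTP mice, by 0.11. Psma8, the alpha subunit of the testis, was below the filter, at 4.58 and 4.89 in acupoint mice, 4.33 and 4.70 in non-acupoint mice, 4.80 and 4.87 in MPTP mice, and 5.06 and 4.67 in control mice.

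Among the beta subunits, Psmb5 had the largest difference between MPTP and control mice of all 47 members. Psmb5 read 8.95 and 9.18 in the acupoint mice, 9.12 and 9.14 in the non-acupoint mice, 9.39 and 9.53 in the MPTP mice, and 9.02 and 8.93 in the control mice. Both MPTP mice lay above all 6 other mice, and the acupoint values overlapped those of the control mice. Psmb5 was not alone in this order. It also held for Psmb2, Psmb4, Psmd9, Psmd10 and Psmg2, and for Psmc3 and Psmd4 by less than the rounding shows. The share of all genes with this order was not counted. Ependyma markers (9 of 9 measured) also set the MPTP mice apart, at -0.52 and -0.35 against -0.09 to 0.42 in the others, relative to the control mean. Their part in the Psmb5 values was not tested. The difference of MPTP from control was 0.49 (SE 0.12), which gave an adjusted p = 0.93 in limma's moderated test after Benjamini-Hochberg adjustment over all 16342 probe sets. With a thalamus, septum and pallidum marker score in the model it was 0.53 (adjusted p = 0.54, limma), and leaving out each mouse in turn gave 0.41 to 0.56.

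Psmb6 and Psmb7 carry the other constitutive active sites, caspase-like and trypsin-like. Psmb6 read 9.99 and 10.28 in the acupoint mice, 10.01 and 10.08 in the non-acupoint mice, 10.18 and 10.39 in the MPTP mice, and 10.15 and 10.11 in the control mice. The MPTP and control values did not overlap, and acupoint mouse 2 lay between the MPTP mice. Psmb7 read 10.55 and 10.30 in acupoint mice, 10.37 and 10.42 in non-acupoint mice, 10.55 and 10.46 in MPTP mice, and 10.51 and 10.55 in control mice. It differed by -0.03 (SE 0.11) between MPTP and control mice, so the 3 constitutive catalytic subunits differed by 0.49, 0.15 and -0.03. For Psmb6 the difference was 0.25 without MPTP mouse 1 and 0.05 without MPTP mouse 2.

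Psmb3 and Psmb4 are beta subunits without an active site. Psmb3 read 9.63 and 10.14 in acupoint mice, 9.74 and 9.77 in non-acupoint mice, 9.98 and 10.06 in MPTP mice, and 9.76 and 9.79 in control mice. Psmb4 read 9.78 and 10.04 in acupoint mice, 9.90 and 9.84 in non-acupoint mice, 10.13 and 10.10 in MPTP mice, and 9.96 and 9.92 in control mice. MPTP against control differed by 0.25 (SE 0.16) for Psmb3 and by 0.17 (SE 0.11) for Psmb4, with adjusted p = 0.93 for each (limma). In both genes acupoint mouse 1 was the lowest of the 8 mice, and acupoint mouse 2 was the highest for Psmb3 and next below the MPTP mice for Psmb4.

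Psmb3 to Psmb6 shared an order across mice that was noticed after their values were seen. In each of these 4 genes the highest 3 arrays were both MPTP mice and acupoint mouse 2, and none of the other 43 tested members showed it. The same 3 arrays were highest for 400 of the 14890 genes (2.69%). A second probe set of Psmb3 had the same 3 highest arrays, at 9.38 in acupoint mouse 2 and 9.34 in each MPTP mouse, against 9.06 to 9.23 in the others. Acupoint mouse 2, MPTP mouse 1 and MPTP mouse 2 differed widely in choroid plexus markers, at 0.14, 2.34 and -0.22 relative to control mice. In striatal markers they stood at 0.25, -2.12 and 0.38. Ependyma markers averaged lower in these 3 mice than in the others, at -0.09, -0.52 and -0.35 against -0.01 to 0.42. Gene by gene this held for Ccdc153, Rarres2 and Ak7, but not for Tmem212, Dynlrb2, Dnah11, Mia and Rsph4a. Foxj1 tied at the precision shown. The part of tissue makeup in the pattern was not tested. The 4 values on 1 array are not independent of each other, and the pattern has no test.

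**Figure D2:**
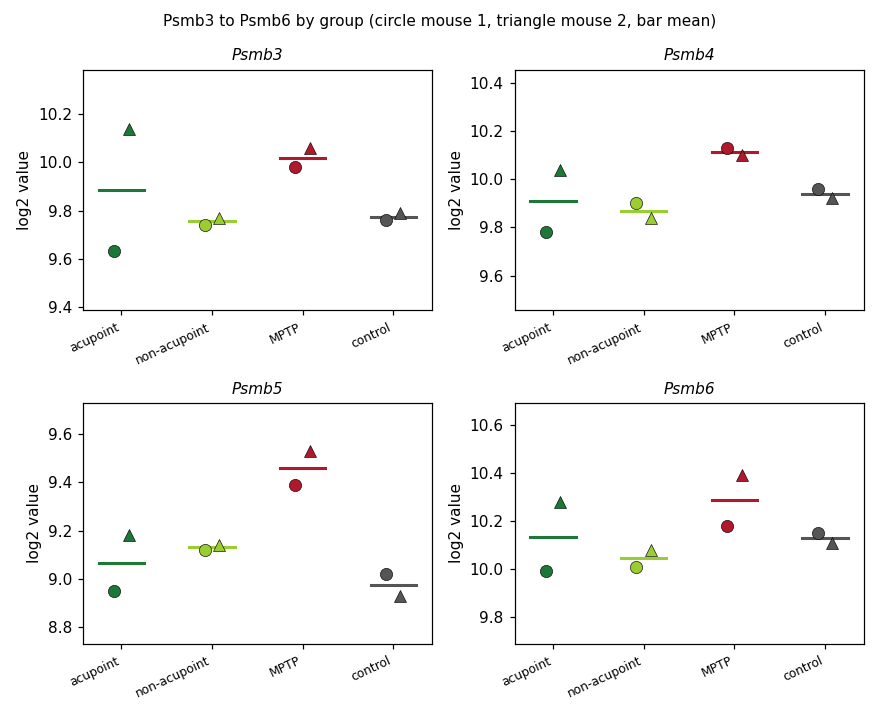
Log2 values of the beta subunits Psmb3, Psmb4, Psmb5 and Psmb6 in each mouse by group; circles are mouse 1, triangles mouse 2 and bars group means of 2 mice. In each gene the MPTP mice and acupoint mouse 2 are the highest 3 mice. Both MPTP mice are above the other 6 for Psmb4, at 10.13 and 10.10, and for Psmb5, at 9.39 and 9.53.

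Of the remaining constitutive beta genes, Psmb2 was higher in both MPTP mice than in both control mice, by 0.07. Psmb1 was lower, at 9.00 and 8.96 in MPTP mice against 9.11 and 9.19 in control mice. Of the 9 beta genes tested, 5 were thus higher in both MPTP mice than in both control mice and 1 was lower, and their median difference was 0.15. In the whole table, 17.5% of genes were higher and 11.6% lower without overlap. Without MPTP mouse 1 the beta counts were 5 higher and 2 lower, beside 38.7% and 32.7% of all genes, and without MPTP mouse 2 they were 6 and 1, beside 44.9% and 36.2%.

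The inducible catalytic subunits Psmb8, Psmb9 and Psmb10 replace Psmb5, Psmb6 and Psmb7 in the immunoproteasome. Psmb8 was below the filter in the mean, at 5.02 and 5.22 in acupoint mice, 5.15 and 5.04 in non-acupoint mice, 5.31 and 5.20 in MPTP mice, and 5.25 and 5.08 in control mice. Psmb9 read 7.12 and 6.99 in acupoint mice, 6.85 and 6.89 in non-acupoint mice, 7.08 and 7.05 in MPTP mice, and 7.22 and 7.00 in control mice. For both genes the MPTP and control values overlapped. Psmb9 was lower in both non-acupoint mice than in all the others, by 0.19 against MPTP mice and by 0.24 against control mice.

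Psmb10 had the widest span of the tested members. It read 7.36 and 7.29 in acupoint mice, 7.47 and 7.49 in non-acupoint mice, 8.00 and 7.45 in MPTP mice, and 7.45 and 7.49 in control mice. The high value belonged to MPTP mouse 1, the mouse with few striatal and many thalamic and choroid plexus markers, and MPTP mouse 2 read like the controls. Acupoint against MPTP mice differed by -0.41 (SE 0.17; limma, adjusted p = 0.90). Without MPTP mouse 1 that difference was -0.13, and without MPTP mouse 2 it was -0.68, each resting on 1 MPTP mouse. MPTP against control gave -0.02 without MPTP mouse 1 and 0.53 without MPTP mouse 2. Markers of microglia, the resident immune cells of the brain (9 of 10 measured), averaged -0.39 in MPTP mouse 1 and -0.14 to 0.10 in the other MPTP-treated mice. Psmb11, the catalytic subunit of the thymus, was below the filter, between 5.13 and 5.27 in all mice.

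**Figure D3:**
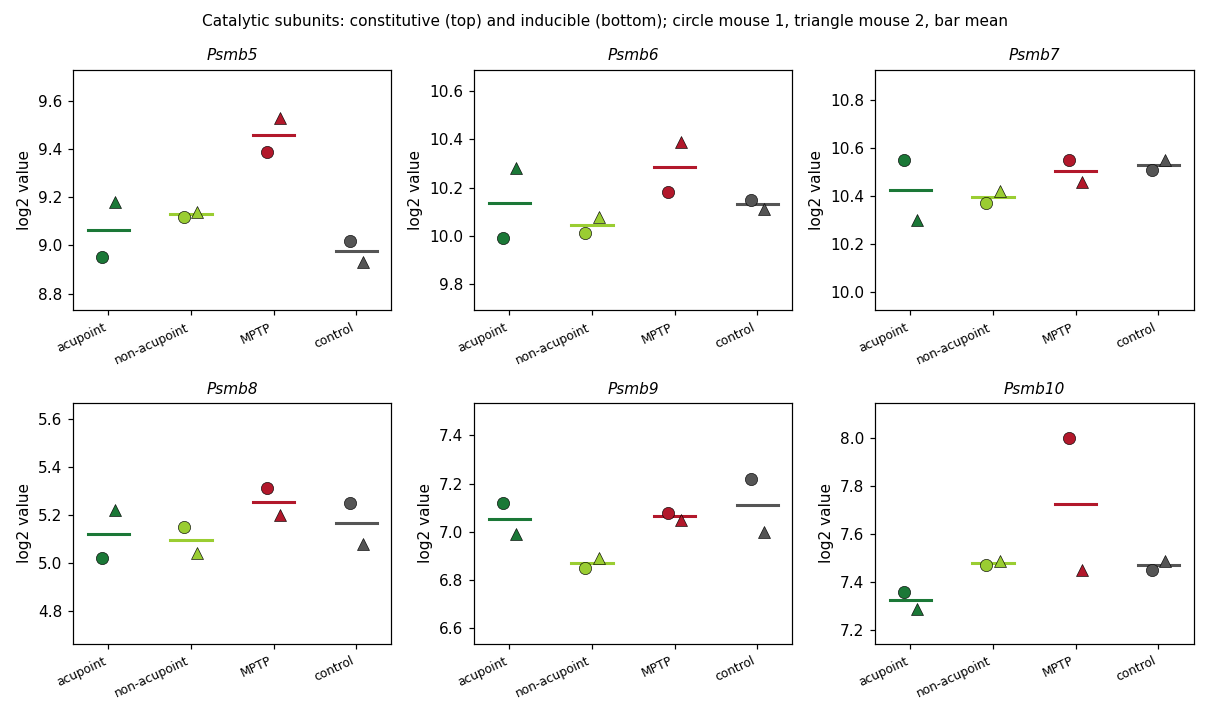
Log2 values of the constitutive catalytic subunits (top: Psmb5, Psmb6, Psmb7) and the inducible ones (bottom: Psmb8, Psmb9, Psmb10) in each mouse by group; circles are mouse 1, triangles mouse 2 and bars group means of 2 mice, with an axis of its own for each gene. Psmb5 is high in both MPTP mice, while Psmb10 is high in MPTP mouse 1, at 8.00, and not in mouse 2, at 7.45.

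The cap unfolds substrates with its 6 ATPases, Psmc1 to Psmc6, and binds and trims ubiquitin with Psmd subunits. All 20 cap genes were tested, and all lay within 0.2 of the control mean in MPTP mice. Their changes ran from -0.14 for Psmd6 to 0.17 for Psmc5, with a median of 0.02. The MPTP values cleared the control values upward for 4 genes (Psmc3, Psmd4, Psmd9 and Psmd10) and downward for 4 (Psmc2, Psmd3, Psmd5 and Psmd6), each 20.0% of the cap, beside 17.5% of all genes higher and 11.6% lower. For Psmc3 and Psmd4 the gap was smaller than the rounding of the nearest values shows. Psmc5 read 10.60 and 10.53 in acupoint mice, 10.57 and 10.56 in non-acupoint mice, 10.90 and 10.54 in MPTP mice, and 10.56 and 10.54 in control mice, so that its group mean rested on MPTP mouse 1. Psmd4, a receptor for ubiquitin chains, read 8.99 and 8.86 in acupoint mice, 8.84 and 9.01 in non-acupoint mice, 9.21 and 9.09 in MPTP mice, and 9.07 and 9.09 in control mice. It had the lowest difference of the cap in both needled groups against MPTP mice, -0.23 in each.

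Psmc2, an ATPase of the base, was the 1 member lower in all 6 MPTP-treated mice than in both control mice. It read 9.65 and 9.56 in acupoint mice, 9.63 and 9.56 in non-acupoint mice, 9.64 and 9.59 in MPTP mice, and 9.67 and 9.72 in control mice. The difference of all MPTP-treated groups from control was -0.09 (SE 0.08; limma, adjusted p = 0.98), and 3.44% of all genes were lower in this way. No member was higher in all 6, against 3.74% of all genes. In this comparison 21 members lay above 0, against 50.1% of all genes, and no member passed adjustment (0% of all genes). With each array centred on its median 29 lay above 0, so the majority turned with the scaling. Psmb5 had the largest difference in this comparison, 0.25, and the 1 unadjusted p under 0.05 among the members, where 1.81% of all genes were higher and 1.51% lower at that level, but its values overlapped the controls.

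Psmd5, Psmd9 and Psmd10 are chaperones that assemble the ATPase ring and leave before the cap is complete. Psmd5 read 9.07 and 8.82 in acupoint mice, 9.08 and 8.98 in non-acupoint mice, 8.79 and 8.85 in MPTP mice, and 8.91 and 9.00 in control mice. Psmd9 read 8.01 and 8.05 in acupoint mice, 8.07 and 7.92 in non-acupoint mice, 8.15 and 8.17 in MPTP mice, and 8.12 and 7.99 in control mice. Psmd10 read 8.92 and 8.86 in acupoint mice, 8.91 and 8.83 in non-acupoint mice, 9.07 and 9.00 in MPTP mice, and 8.81 and 8.97 in control mice. Psmd9 and Psmd10 were higher in MPTP mice than in all others, by 0.10 and 0.15 against control mice, and Psmd5 was lower in MPTP than in control mice by 0.13. How many of all genes were higher in MPTP mice than in all others was not counted. Leaving out each mouse gave 0.04 (without control mouse 2) to 0.17 for Psmd9 and 0.07 (without control mouse 1) to 0.23 (without control mouse 2) for Psmd10. None of the 3 had an unadjusted p under 0.05 between MPTP and control mice, between either needled group and MPTP mice, or between the needled groups (limma).

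Activators open the gate of the barrel in place of the cap. Psme1 and Psme2 encode the PA28 ring of the cytoplasm, Psme3 its nuclear relative and Psme4 the PA200 protein. Psme1 read 9.29 and 9.20 in acupoint mice, 9.41 and 9.38 in non-acupoint mice, 9.02 and 9.27 in MPTP mice, and 9.46 and 9.36 in control mice. Both MPTP mice were below both control mice, by 0.26 in the mean (SE 0.11; limma, adjusted p = 0.93), the lowest difference of the 47 members. MPTP mouse 1 was the lower of the pair, and without it the difference was -0.13.

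Psme2, the partner of Psme1 in the ring, read 7.40 and 7.34 in acupoint mice, 7.45 and 7.50 in non-acupoint mice, 7.39 and 7.48 in MPTP mice, and 7.49 and 7.43 in control mice, and MPTP and control values overlapped. Psme3 read 9.75 and 9.64 in acupoint mice, 9.65 and 9.78 in non-acupoint mice, 9.87 and 9.60 in MPTP mice, and 9.61 and 9.70 in control mice. Psme4 read 8.54 and 8.46 in acupoint mice, 8.55 and 8.68 in non-acupoint mice, 8.71 and 8.53 in MPTP mice, and 8.32 and 8.47 in control mice. Of these 3, Psme4 alone had MPTP values clear of the controls, by 0.22 (SE 0.11; limma, adjusted p = 0.93), and its non-acupoint values also differed from the controls by 0.22. Its MPTP difference was 0.13 without MPTP mouse 1 and 0.15 without control mouse 1. A further probe set annotated to both Psme2 and the related gene Psme2b was not counted and lay between 6.16 and 6.62. Psmf1, which encodes the inhibitor PI31, was the steadiest tested member, between 7.95 and 8.08 in all mice.

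Psmg1 to Psmg4 encode the chaperones that assemble the alpha ring. Psmg2 read 8.03 in both acupoint mice, 8.03 and 7.97 in non-acupoint mice, 8.10 and 8.19 in MPTP mice, and 7.68 and 7.98 in control mice. MPTP against control differed by 0.31 (SE 0.12; limma, adjusted p = 0.93), and without control mouse 1, the lowest of the 8, the difference was 0.16. Psmg1, the partner of Psmg2, lay between 8.10 and 8.30 in all mice and differed by 0.05. Psmg3 lay between 5.77 and 6.19 and differed by -0.04. Psmg4 read 6.00 and 6.40 in acupoint mice, 6.10 and 6.19 in non-acupoint mice, 6.35 and 6.38 in MPTP mice, and 6.31 and 6.41 in control mice. For Psmg1, Psmg3 and Psmg4 the MPTP and control values overlapped.

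Psmc3ip, a meiotic recombination factor, lay between 6.14 and 6.43, and Psme3ip1 between 8.18 and 8.39. Both overlapped between MPTP and control mice. Where a gene had extra probe sets (6 on 5 genes), the MPTP difference from control was -0.04 and -0.07 for Psma3 beside -0.05 on the probe set kept, -0.04 for Psma5 beside 0.05, 0.14 for Psmb3 beside 0.25 0.15 for Psmc1 beside 0.05 and 0.00 for Psmd2 beside 0.03. Psma5 was the 1 gene whose probe sets differed clearly in sign in that comparison, with both values small. In acupoint against MPTP mice the Psma5 probe sets also differed in sign, at 0.11 on the extra one beside -0.16 on the one kept.

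For MPTP against control mice as a whole, no member had an adjusted p under 0.05 (0% of 14890 genes did), and the smallest adjusted p of a member was 0.93. Before adjustment 2 members, Psmb5 and Psmg2, were higher at p under 0.05 and none lower, against 2.16% and 1.84% of all genes. Of the 47 members, 28 lay above 0 and 19 below, where 54.8% of all genes lay above 0, and their median of 0.03 stood beside 0.02 for all genes. The values did not overlap for 12 members that were higher (25.5%, against 17.5% of all genes) and 7 that were lower (14.9%, against 11.6%). The higher ones comprised 6 core, 4 cap and 2 activator or assembly genes. In 41 of the 47 the difference was at most 0.2.

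**Figure D4:**
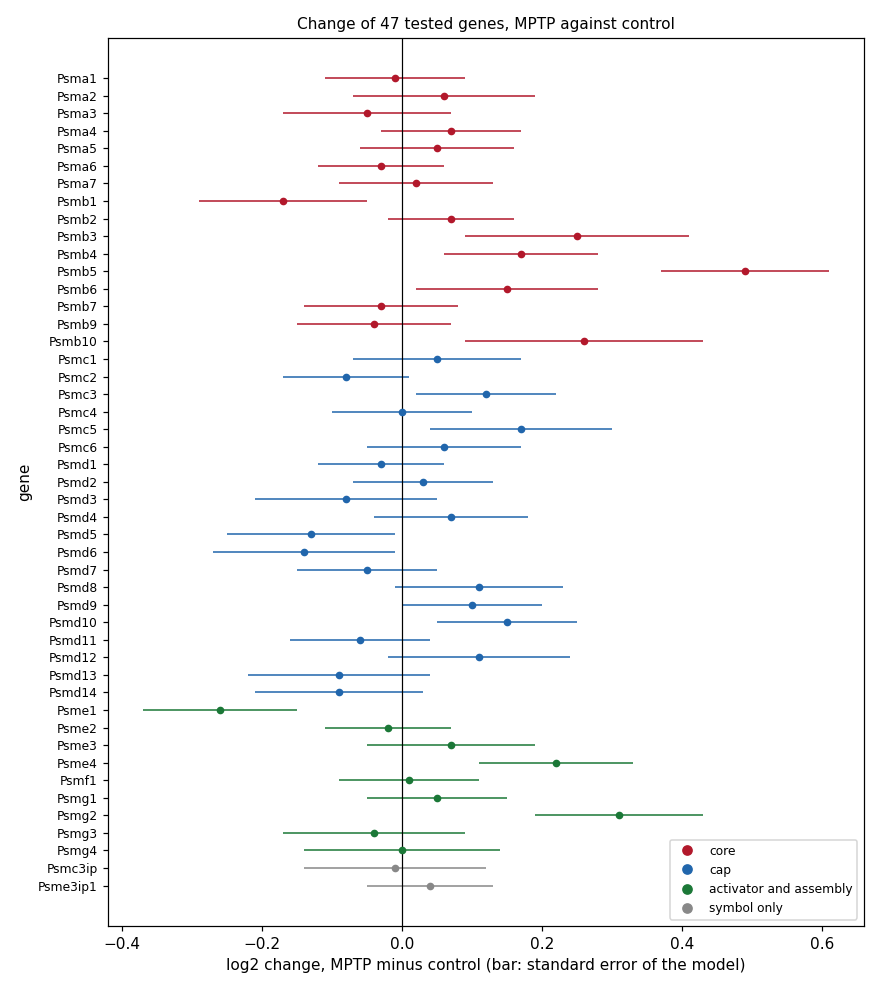
Log2 difference of MPTP minus control mice for the 47 tested genes, ordered by class, with the standard error of the limma model as bars. Most bars cross or touch 0; Psmb5 at 0.49 and Psmg2 at 0.31 lie farthest to the right and Psme1 at -0.26 farthest to the left.

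Both needled groups were compared with the same 2 MPTP mice, so their differences share those mice. In acupoint against MPTP mice no member passed (0% of all genes; smallest adjusted p of a member 0.90, limma), and 2 members were lower before adjustment, Psmb5 and Psmb10, against 2.65% of all genes. Psmb5 was lower, with a difference of -0.39 (SE 0.12; limma, adjusted p = 0.90) that ranged from -0.51 to -0.28 when each mouse was left out. Of the 47 members, 37 lay below 0, and their median was -0.10 beside -0.04 for all genes, of which 39.3% lay above 0. Without acupoint mouse 2, which held the lowest value of 16 members (34.0%, against 18.2% of all genes), 16 members rather than 10 lay above 0. The values cleared each other downward for 15 members (31.9%, against 19.4% of all genes) and upward for 1 (2.13%, against 7.9%).

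In non-acupoint against MPTP mice no member passed either (0% of all genes; smallest adjusted p of a member 0.74, limma). Psmb5 was the 1 member with an unadjusted p under 0.05, at -0.33 (SE 0.12; limma, adjusted p = 0.74), where 3.22% of all genes were lower and 3.45% higher at that level. Choroid plexus markers were high in both non-acupoint mice, at 2.32 and 2.98, and in MPTP mouse 1, at 2.34, but not in MPTP mouse 2, at -0.22. With these markers in the model the Psmb5 difference was -0.22 (limma, adjusted p = 0.43). Again 37 of 47 members lay below 0, with a median of -0.08 beside -0.01 for all genes, of which 48.1% lay above 0. With each array centred on its median, 28 lay below 0 and 19 above, and the median was -0.04. With quantile normalisation 8 lay above 0. Cortical neuron markers averaged lower in all 4 needled mice than in both MPTP mice. Gene by gene this held for Slc17a7 and Neurod2, but not for Tbr1, Neurod6, Rtn4rl2, Nrn1 and Cux2. The part of these markers in the member shifts against MPTP was not tested. Without overlap, 15 members were lower (31.9%, against 18% of all genes) and 4 higher (8.51%, against 15.2%), the higher ones being Psmd1, Psmd5, Psmd11 and Psme1.

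Of the 15 members lower without overlap, 4 were beta genes, 6 cap genes and 2 alpha genes in acupoint mice, and 7 were beta genes and 6 cap genes in non-acupoint mice. The rest in acupoint mice were Psmg2, Psmg3 and Psme3ip1, the last a match by symbol only. Lower in both non-acupoint mice than in both MPTP mice were 7 of 9 beta genes (Psmb2, Psmb3, Psmb4, Psmb5, Psmb6, Psmb7 and Psmb9), with a median of -0.24 over the 9, and none of 7 alpha genes, whose median was -0.03, beside 18% of all genes. In acupoint against MPTP mice 4 of 9 beta genes were lower without overlap (Psmb2, Psmb4, Psmb5 and Psmb10), and 2 of 7 alpha genes (Psma4 and Psma5), beside 19.4% of all genes. The second probe set of Psma5 went the other way, at 0.11. Psmb3, Psmb4 and Psmb6 differed from MPTP mice by -0.14, -0.21 and -0.15 in acupoint mice and by -0.27, -0.24 and -0.24 in non-acupoint mice. In the acupoint mice these values rested on which mouse was kept: without acupoint mouse 1 they were 0.12, -0.08 and -0.01, and without acupoint mouse 2 they were -0.39, -0.34 and -0.29. Without MPTP mouse 1 and without MPTP mouse 2 the acupoint difference of Psmb6 was -0.25 and -0.05. In the non-acupoint mice, leaving out each mouse gave -0.31 to -0.22 for Psmb3, -0.27 to -0.21 for Psmb4 and -0.34 to -0.14 for Psmb6. Without MPTP mouse 1, 5 beta genes were lower in acupoint mice and 7 in non-acupoint mice, beside 40.5% and 38.7% of all genes. Without MPTP mouse 2 the counts were 4 and 8, beside 47.2% and 42.7% of all genes. The difference between alpha and beta genes was not tested.

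**Figure D5:**
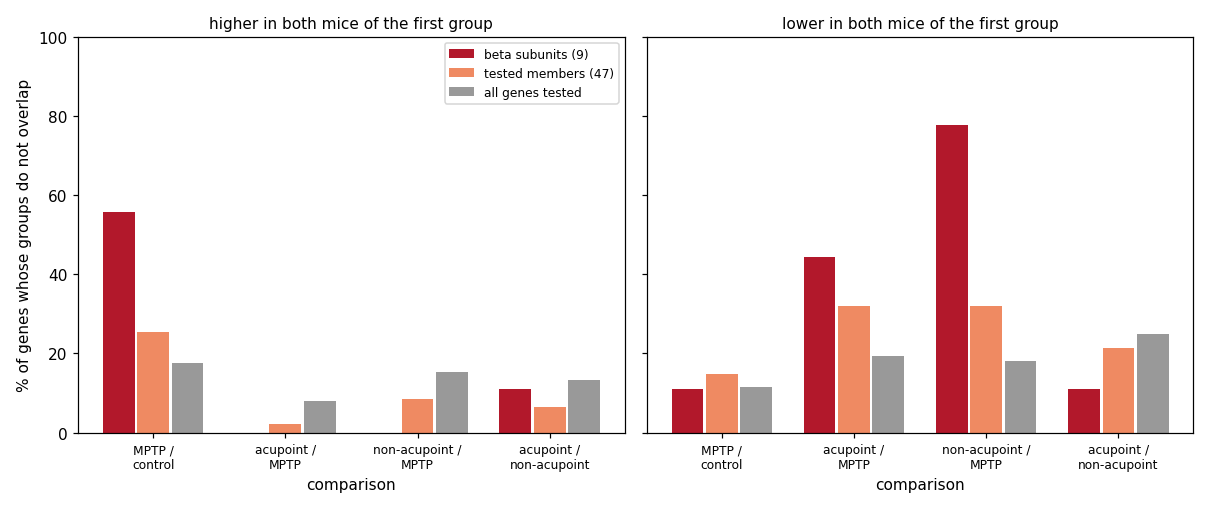
Percent of genes whose values in both mice of the group at the top of each axis label lie all higher (left) or all lower (right) than in both mice of the other group, for 9 beta subunits, 47 tested members and all genes tested, in 4 comparisons. The beta bars for non-acupoint against MPTP mice, at 77.8% lower, and for MPTP against control mice, at 55.6% higher, rest on 7 and 5 of 9 genes.

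Acupoint and non-acupoint needling differed little in these genes. All 47 members lay within 0.2 of each other between the needled groups, from -0.17 for Psmd12 to 0.18 for Psmb9, with a median of -0.01 beside -0.03 for all genes. Of these, 21 lay above 0, against 41.2% of all genes, and 28 did with quantile normalisation. No member passed (0% of all genes), the smallest adjusted p was 0.96 (limma), and no member had an unadjusted p under 0.05, where 1.11% of all genes were higher and 2.08% lower. Without overlap 3 members were higher in acupoint mice (Psma1, Psma6 and Psmb9; 6.38%, against 13.3% of all genes) and 10 were lower (21.3%, against 25%). Psmb5, at -0.06, overlapped between the needled groups. These values do not show that both kinds of needling act alike, since the design cannot give an exact permutation p below 0.333 for 2 mice against 2.

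Against control mice, 13 members lay above 0 in acupoint mice, where 43.3% of all genes did (21 members with each array centred on its median), with a median of -0.05 and 2 higher and 14 lower without overlap, where 12.5% of all genes were higher and 21.5% lower. In non-acupoint mice 17 lay above 0, where 51.2% of all genes did (25 members, a majority, with each array centred on its median), with a median of -0.04 and 7 higher and 15 lower without overlap, where 27.1% and 22.3% of all genes were. No member passed in either comparison (0% of all genes; smallest adjusted p 1.0 in acupoint and 0.77 in non-acupoint mice, limma). No member had an unadjusted p under 0.05 in either. At that level 0.604% of all genes were higher and 1.34% lower in acupoint mice, and 3.68% were higher and 2.32% lower in non-acupoint mice. Psmb5 differed from control mice by 0.09 in acupoint mice and by 0.16 in non-acupoint mice, and in the non-acupoint mice it did not overlap the controls.

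Genes that work with the proteasome but lack the symbol gave no call either. Of 10 partners, 8 were measured, and in MPTP against control mice none passed the test or had an unadjusted p under 0.05, with a median of 0.01 and a range of -0.09 to 0.23. Pomp, which guides the beta ring onto the alpha ring, read 11.01 and 10.86 in acupoint mice, 11.10 and 11.04 in non-acupoint mice, 11.02 and 11.03 in MPTP mice, and 11.08 and 11.15 in control mice. MPTP against control differed by -0.09 for Pomp, and by 0.23 for Uchl5, a deubiquitinase of the cap, whose values overlapped. The Uchl5 difference rested on MPTP mouse 1: it was -0.02 without that mouse and 0.48 without MPTP mouse 2.

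The NRF1 list, which also holds ubiquitin shuttles, had 13 of 15 genes measured, none called and a median of -0.02 in MPTP against control mice. Nfe2l1 read 9.59 and 9.43 in acupoint mice, 9.54 and 9.41 in non-acupoint mice, 9.54 and 9.42 in MPTP mice, and 9.50 and 9.66 in control mice, a difference of -0.10 for MPTP against control with overlap. Nfe2l2, which encodes the related factor NRF2, differed by 0.20 (SE 0.14). Of the antigen presentation and interferon genes, 13 of 18 were measured and 12 tested, with no call and a median of -0.04. Irf7, an interferon regulator, differed by 0.15 and Calr, a chaperone of antigen loading, by -0.08. Of 6 ubiquitin and E1 genes, Uba6, a ubiquitin-activating enzyme, was the 1 measured here, and it differed by -0.07.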

How the data were processed

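Total RNA from both striata (300 ng) was hybridised to 8 Affymetrix whole-transcript arrays, 1 per mouse. The deposited table holds log2 values for 35557 probe sets, made by the authors with Expression Console and RMA, per the submitters' processing notes. The genome build is not given in the sources used here. GEO's platform annotation gave 1 symbol to 21789 probe sets, several to 1621 and none to 12147, and 21698 matched a RefSeq gene ID. Promoters came from RefSeq (GRCm38.p6).

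Groups came from the sample titles. Probe sets with 1 symbol and a mean at or above the 25th percentile (5.25, 16342 probe sets) were fitted with limma 3.58.1 in R 4.3.3, with 4 group means over 8 arrays, 4 residual and 2.94 prior degrees of freedom, two-sided tests and Benjamini-Hochberg adjustment at 0.05. The code was tested on simulated data. Values are given for members that did not overlap and had an unadjusted p under 0.05, and for a set list of catalytic, activator, inhibitor and assembly genes. Other genes were chosen after their values were seen. The members and lists were chosen with earlier results of these data known. Alternatives covered the scaling, the filter, covariates for tissue markers, array weights and single mice left out. Nothing says whether mice were handled independently, so p-values measure the spread between these samples. The number of arrays limits the precision.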

Additional observations from a re-analysis of the deposited data

How the results depend on the processing

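No setting gave any member an adjusted p under 0.05 except leaving out MPTP mouse 2, where Psmb10 alone passed against the MPTP group in 3 comparisons (counts of 0 to 1 over single mice left out, in MPTP against control and in both needled groups against MPTP). Without MPTP mouse 2, which leaves the mouse that stands apart, the probe sets called reached 1607 in MPTP against control, 1453 in acupoint against MPTP and 794 in non-acupoint against MPTP (lowest 0 in each), and over single mice left out they ran from 0 to 70 in all MPTP-treated groups against control. The thalamus, septum and pallidum score called 2 probe sets in MPTP against control and 4 in non-acupoint against MPTP, fits of only the groups compared called 1 in acupoint and 2 in non-acupoint against control, and array weights called 1 in all MPTP-treated groups against control. None was a member, and the cause was not tested. The median of the members moved by more than its spread between mice (0.028) as follows. Centring on the array median gave -0.04 in non-acupoint against MPTP, -0.01 and 0.01 in acupoint and non-acupoint against control, and 0.02 in all MPTP-treated groups. Quantile normalisation gave -0.07 in acupoint against MPTP, 0.03 in acupoint against non-acupoint and -0.07 in non-acupoint against control, as did the choroid plexus score in the last. Leaving out single mice gave medians of 0.00 to 0.04 in MPTP against control, -0.10 to -0.07 and -0.09 to -0.06 in acupoint and non-acupoint against MPTP, -0.06 to 0.03 between needled groups, and -0.09 to -0.03 in acupoint against control. Correlations of the deviations of same-numbered mice ran from -0.49 to 0.40 and did not share a sign. With 2 mice a group and unlike tissue makeup, they cannot show whether the mouse numbers pair the samples. The replicate block left Psmb5 at 0.49 in MPTP against control (limma, adjusted p = 0.95) and called no member. Of the medians, 83 of 91 stayed within their spread.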

Other observations

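Nfe2l2 and Uba6 were singled out after their values were seen. Nfe2l2, which encodes the stress-response factor NRF2, read 8.16 and 8.22 in acupoint mice, 8.38 and 8.72 in non-acupoint mice, 8.04 and 7.97 in MPTP mice, and 7.70 and 7.92 in control mice. All 6 MPTP-treated mice lay above both control mice, where 3.74% of all genes did. The difference from control was 0.38 in acupoint, 0.74 in non-acupoint and 0.20 in MPTP mice, and none passed adjustment (0.77 for the non-acupoint mice, limma). Choroid plexus markers were also highest in non-acupoint mouse 2, at 2.98 above control. They stood at 2.32 in non-acupoint mouse 1, 2.53 and 0.14 in acupoint mice, and 2.34 and -0.22 in MPTP mice. Their part in the Nfe2l2 values was not tested. Uba6 read 9.40 and 9.26 in acupoint mice, 9.64 and 9.61 in non-acupoint mice, 9.02 and 9.33 in MPTP mice, and 9.16 and 9.33 in control mice. Both non-acupoint mice were above the other 6, by 0.45 against MPTP mice (limma, adjusted p = 0.66) and by 0.38 against control mice (limma, adjusted p = 0.77). Of all genes, 15.2% were higher without overlap in non-acupoint mice against MPTP mice and 27.1% against control mice.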
